A study of Homo sapiens with 6 samples.

Results

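The genes of the FOS and JUN families (FOS, FOSB, FOSL1, FOSL2, JUN, JUNB and JUND) and of the stimulus-induced factors EGR1, ATF3 and IER2 were examined after induction of p21 in SaOS-2 cells. These 10 genes were taken from the deposited table by their symbols. All 10 were among its 23228 gene names, and all 10 passed the filter on low values that left 13255 genes for testing. SaOS-2 is an osteosarcoma line that the study describes as lacking RB, and the cells carried a doxycycline-inducible vector for p21, the CDK inhibitor encoded by CDKN1A. In p21 OFF samples (n = 3) the cells were untreated, and in p21 ON samples (n = 3) they had received doxycycline at 1 μg/ml for 24 h. Every sample carried the vector, and libraries of cells given the drug without it were not analysed here, so an effect of doxycycline and an effect of p21 cannot be told apart. The labels number the samples but do not say that they were separate cultures. The study's RNA-seq methods speak of biological replicates, without saying whether the SaOS-2 samples were separate cultures. The p-values therefore measure the spread between these samples, which may be technical.

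AP-1 is a dimer of bZIP proteins, either a JUN protein with itself or a JUN protein with a FOS or ATF protein, that binds DNA at short palindromic sites. FOS, FOSB, JUNB, EGR1 and IER2 are classical immediate early genes, whose transcription starts without new protein synthesis when growth factors or stress activate MAP kinases, the serum response factor SRF and CREB, and whose mRNAs decay quickly. JUND and FOSL2 are usually present at a steadier level, and AP-1 proteins take part in osteoblast growth and differentiation.

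The promoters of these genes hold letters of elements that are known to receive such signals. In the 500 bases before the start of the canonical transcript (GENCODE release 44 on GRCh37, the build of hg19), exact matches to known letters were searched on both strands. The CArG box, the site of SRF, was found in 3 of 10 members, with 5 copies in EGR1 and 1 each in FOS and FOSB, and in 2.28% of the 12604 promoters of tested genes. TGACG, the core of the cAMP response element (CRE) read by CREB and ATF proteins, was found in 10 of 10 members and in 42.4% of all promoters. The full CRE, TGACGTCA, which contains the core on each strand, was found in FOSB and JUND and in 3.71% of promoters. No member held the AP-1 site TGACTCA or TGAGTCA in this window, against 5.14% of promoters, and none held the EGR site GCGTGGGCG, against 1.94%. The E2F site TTCCCGCC was found in FOS and in 7.24% of promoters. The cell cycle element TTTGAA or TTCGAA was found in EGR1 and in 22.3%. These are letter matches, and binding was not measured.

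The stretches of FOS (chr14:75745211-75745244) and FOSB (chr19:45970974-45971007), both on the plus strand of GRCh37, are shown because they share an arrangement. In each the TGACG core, here on the opposite strand and so read as CGTCA, starts 17 bases after the start of the CArG box. In all 19 of the 34 letters are the same. Both stretches were cut at the CArG box, so its fixed letters, CC and GG, are the same by choice. These letters and those of the core are part of the 19. Capitals mark the CArG box and the core.
FOS: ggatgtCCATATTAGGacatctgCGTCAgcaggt
FOSB: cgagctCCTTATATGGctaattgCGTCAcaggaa

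EGR1 is shown for its CArG boxes, which lie in a far group (chr5:137800744-137800819) and in a near group that ends in a TGACG core (chr5:137801057-137801112), both on the plus strand, with the boxes and the core in capitals.
EGR1 far: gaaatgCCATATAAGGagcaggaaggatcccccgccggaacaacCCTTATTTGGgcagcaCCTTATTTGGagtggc
EGR1 near: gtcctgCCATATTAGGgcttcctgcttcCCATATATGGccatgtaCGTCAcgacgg

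The 3 members whose RNA changed by the test below, and JUND beside JUN and JUNB, are shown around the TGACG core nearest to the start, in capitals. The stretches are chr1:59249826-59249854 (minus strand) for JUN, chr19:12902151-12902179 (plus strand) for JUNB, chr19:18392502-18392530 (minus strand) for JUND and chr1:212782004-212782032 (plus strand) for ATF3. The core ends 119 bases before the start in JUN, 133 in JUNB, 82 in JUND and 83 in ATF3, and the ATF3 stretch overlaps an exon of another ATF3 transcript.
JUN: gagtctccatggTGACGggcgggcccgcc
JUNB: gcttcctgacagTGACGcgagccgcctcc
JUND: gcaaatgagcgaCGTCAcccgcacccaat
ATF3: ttaatagcattaCGTCAgcctgggactgg

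**Figure D1:**
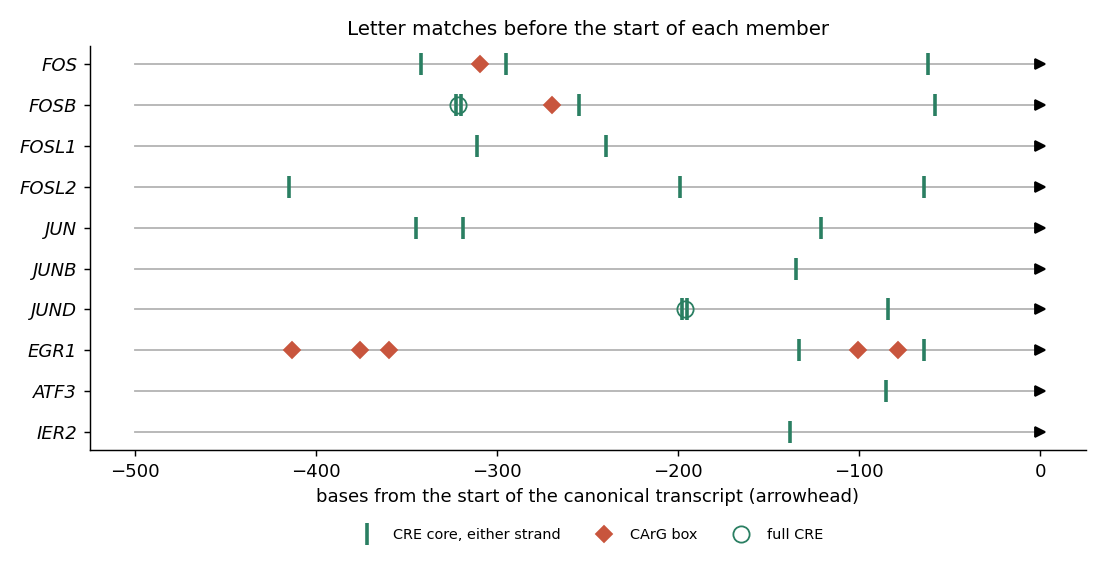
Positions of letter matches in the 500 bases before the start of each member, in bases from the start of the canonical transcript; green ticks mark the CRE core TGACG on either strand, open circles the full CRE and red diamonds CArG boxes. CArG boxes are seen in FOS, FOSB and EGR1, and every member has at least 1 core.

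The table holds counts that the authors divided by a DESeq2 size factor for each library. All values were whole multiples of a step, which returned 12795490 to 21975045 reads on genes in p21 OFF and 12918390 to 16630552 in p21 ON libraries. Normalized counts were compared with limma on log2(normalized count + 1). The p-values were adjusted by Benjamini-Hochberg over all 13255 genes, and genes below 0.05 were called. Log2 fold changes are p21 ON minus p21 OFF after adding this pseudocount, and so are too small for weakly expressed genes. CDKN1A, the induced gene, had 1187 to 1355 normalized counts in p21 OFF and 40470 to 46739 in p21 ON libraries. The osteoblast markers RUNX2, SP7, ALPL, COL1A1 and SPARC had mean normalized counts from 3408 (RUNX2) to 36664 (ALPL), and BGLAP was listed at 0 in every library. The exons of BGLAP share 394 bases with PMF1-BGLAP on the same strand. Whether reads were left uncounted there was not tested, so the 0 does not show that its RNA was absent. IBSP, bone sialoprotein, fell from 129 ± 8.66 to 99.02 ± 3.20 (SD, n = 3 each; log2 fold change -0.38, limma adjusted p = 0.0264), and its part in the results below was not tested. Of 8 markers of leukocytes, endothelium and epithelium, 4 passed the filter, CD68 at 853, EPCAM at 322, KRT5 at 24.9 and PECAM1 at 13.01, none of them called. RB1 had 497 to 697 normalized counts over the libraries. Its mean was 555 ± 66.8 with p21 OFF and 654 ± 39.7 with p21 ON (SD, n = 3 each). It was not called (log2 fold change 0.24, limma adjusted p = 0.0516). These counts are of RNA, and RB protein was not measured here.

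Induction of p21 was accompanied by small changes in this group. The mean of ATF3 rose by 33.6%, that of JUNB fell by 18.9% and that of JUN fell by 14.3%, while the other 7 members did not pass the test. Over all genes tested 10.5% were called higher and 12.7% lower, 23.2% in all, so 3 of 10 members called is close to the background. Members called lower numbered 5 without p21 OFF replicate 1, 3 without p21 OFF replicate 3 and 1 without p21 ON replicate 1. The median log2 fold change of the members was -0.16 and that of all genes tested was 0.01. Of the members 8 had values below 0 and 2 above, and of all genes tested 6478 and 6777. The values of EGR1 and FOSL2 changed sign in some settings (below). The libraries of the groups did not overlap for 6 members, 2 with p21 ON above and 4 with p21 ON below, against 19.1% and 21.3% of all genes tested, 40.4% in all (exact two-sided permutation test for each, p = 0.1, the smallest that 3 libraries against 3 allow).

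The JUN proteins are the obligate partners in AP-1, and JUN, the founding member of the family, lies on chromosome 1 from 59242517 to 59249720. JUN had 8741, 8288 and 8854 normalized counts in p21 OFF libraries and 7200.3, 7241 and 7736 in p21 ON libraries. Every p21 ON library was below every p21 OFF library. Its mean went from 8628 ± 300 to 7393 ± 298 (SD, n = 3 each). This is a log2 fold change of -0.22 (SE 0.06, limma adjusted p = 0.011), which is 0.857 times the p21 OFF level with a 95% interval from 0.787 to 0.933. The call was lost without p21 ON replicate 1, with a log2 fold change of -0.20 (limma adjusted p = 0.0739), and JUN does not pass a threshold of 0.01.

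JUNB, a JUN protein that is a weaker activator than JUN at many sites, lies on chromosome 19 from 12902300 to 12904129. It had 2326, 2054 and 2204 normalized counts in p21 OFF libraries and 1687, 1740.0 and 1910.0 in p21 ON libraries, again without overlap. Its mean fell from 2195 ± 136 to 1779 ± 117 (SD, n = 3 each). On the log2 scale it changed by -0.30 (SE 0.07, limma adjusted p = 0.00384), or 0.811 times the p21 OFF level with a 95% interval from 0.735 to 0.894. JUNB had the lowest adjusted p-value of the members. Its exons share 259 bases with HOOK2 on the opposite strand. The libraries were stranded, but the strand setting of the counting is not given in the sources used here. HOOK2 moved the other way, from 260.0 ± 6.42 to 334 ± 4.28 normalized counts (SD, n = 3 each; log2 fold change 0.36, limma adjusted p = 0.00505).

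JUND, which is often linked to slow growth, had 1916, 1736 and 1770.3 normalized counts in p21 OFF libraries and 1560.0, 1552 and 1858 in p21 ON libraries. The third p21 ON library lay within the p21 OFF range, so the groups overlapped. The log2 fold change was -0.13 with a 95% interval from -0.28 to 0.03 (limma adjusted p = 0.214), and whether JUND differed from JUN or JUNB in its change was not tested.

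None of the 4 FOS family genes passed the test, and their values pointed in different directions. FOSL2 (Fra-2), which has a role in bone cells, had the highest level of them per kilobase (below), with 6165, 7697 and 7808 normalized counts in p21 OFF and 7192, 6677 and 7233 in p21 ON libraries. The p21 ON values lay inside the p21 OFF range. The log2 fold change was -0.03 with a 95% interval from -0.19 to 0.13 (limma adjusted p = 0.805). The p21 OFF range was set by replicate 1, and without it the log2 fold change was -0.14 and FOSL2 was called lower (limma adjusted p = 0.0463).

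FOSL1 (Fra-1), a FOS protein that accumulates with sustained ERK signalling, had 456, 588 and 443 normalized counts in p21 OFF and 367, 441 and 430.5 in p21 ON libraries. The groups did not overlap, by the narrow gap between 443 and 441. The log2 fold change was -0.26 (SE 0.10, limma adjusted p = 0.0812). FOSL1 was called lower without p21 OFF replicate 1 (-0.31) or p21 OFF replicate 3 (-0.33), and the value was -0.13 without p21 OFF replicate 2, its highest library.

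FOSB, a FOS protein induced by growth signals, was weakly expressed, with 69.1, 67.2 and 60.6 normalized counts in p21 OFF and 79.2, 84.1 and 83.6 in p21 ON libraries. All p21 ON values were above all p21 OFF values. The log2 fold change was 0.32 with a 95% interval from 0.03 to 0.62, and the limma adjusted p was 0.1002. FOS itself was close to the lower limit of the test, with 17.6, 20.3 and 19.2 normalized counts in p21 OFF and 15.1, 21.9 and 12.4 in p21 ON libraries. These values rest on 13 to 26 reads per library and overlap. The log2 fold change was -0.23 with a 95% interval from -0.82 to 0.35, which holds a fall of the size seen for JUNB as well as no change.

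ATF3, an ATF/CREB protein induced by many stresses that can pair with JUN proteins, lies on chromosome 1 from 212738676 to 212794119. ATF3 had 285, 307 and 271 normalized counts in p21 OFF libraries and 334, 397 and 422 in p21 ON libraries, all above the p21 OFF values. The mean went from 288 ± 18.01 to 384 ± 45.3 (SD, n = 3 each). On the log2 scale ATF3 changed by 0.41 (SE 0.10, limma adjusted p = 0.00551), or 1.33 times the p21 OFF level with a 95% interval from 1.16 to 1.53. The call was kept in each of 17 alternative settings, with log2 fold changes from 0.34 to 0.51. It was near the threshold without p21 ON replicate 3 (limma adjusted p = 0.0497).

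EGR1, a zinc finger factor that is a classical SRF target, had 188, 184 and 190.0 normalized counts in p21 OFF and 182, 178 and 196 in p21 ON libraries. The ranges overlapped, and the log2 fold change of -0.02 had a 95% interval from -0.22 to 0.19 (limma adjusted p = 0.914), so a change of about the size seen for ATF3 lies outside it. IER2, a small nuclear protein of the immediate early response, had 646, 722 and 650 normalized counts in p21 OFF and 582, 574 and 607 in p21 ON libraries. The groups did not overlap, and the log2 fold change was -0.19 (SE 0.07, limma adjusted p = 0.0663). IER2 was called lower only without p21 OFF replicate 1 (-0.22, limma adjusted p = 0.0285), and its exons overlap those of antisense lncRNAs.

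**Figure D2:**
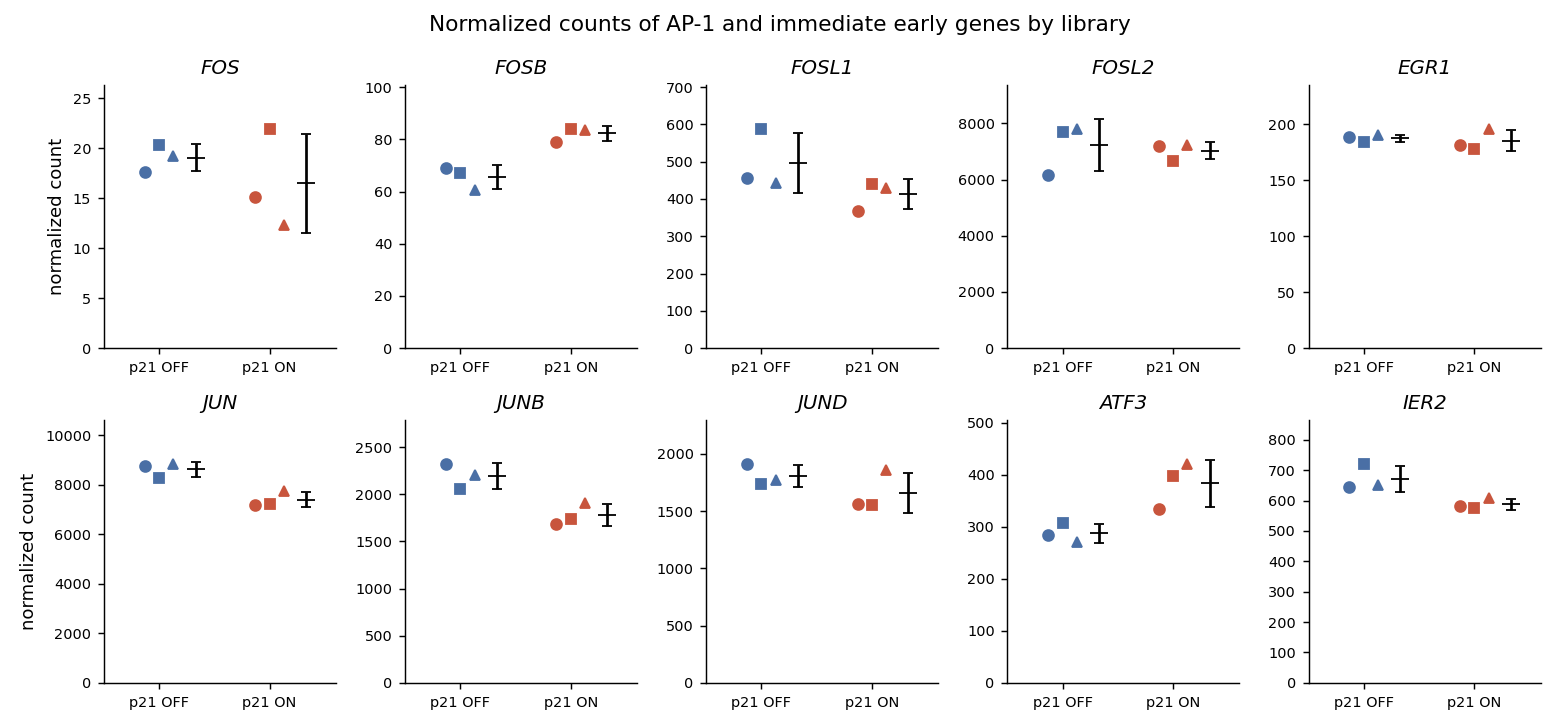
Normalized counts of each member in the p21 OFF (blue) and p21 ON (red) libraries, on axes that start at 0, with circles, squares and triangles for replicates 1, 2 and 3 and black bars for mean ± SD (n = 3). The p21 ON points of JUN, JUNB, IER2 and, by a narrow gap, FOSL1 lie below all p21 OFF points and those of ATF3 and FOSB above.

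**Figure D3:**
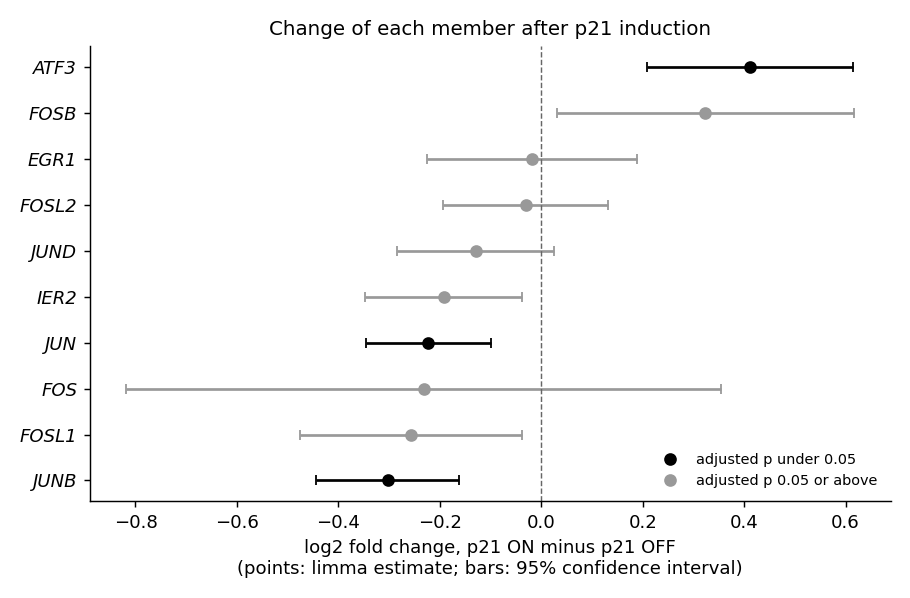
Log2 fold change of each member, p21 ON minus p21 OFF, with its 95% confidence interval from limma; black marks an adjusted p under 0.05 and grey one at or above it. ATF3 at 0.41 and JUNB at -0.30 are the ends of the range, and the interval of FOS is the widest.

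Levels of different genes were compared as normalized counts per kilobase of the canonical transcript. Which transcripts were expressed was not examined, so the SDs cover the spread between libraries and not the choice of length. JUN was highest in p21 OFF cells at 2649 ± 92.0 per kilobase (SD, n = 3). JUNB at 1199 ± 74.3, FOSL2 at 1076 ± 137 and JUND at 937 ± 49.8 followed, and neighbours in this order overlapped between libraries. Below them IER2 (319 ± 20.3) and FOSL1 (291 ± 47.1) also overlapped. ATF3 (148 ± 9.28), EGR1 (59.7 ± 1.06), FOSB (17.4 ± 1.18) and FOS (9.05 ± 0.65) were each separate from the next. With p21 ON the order was the same except that FOSL2 (1048 ± 46.2) was above JUNB (972 ± 63.7), a pair that overlapped. ATF3 (198 ± 23.3) now overlapped with FOSL1 (243 ± 23.6), and IER2 and FOSL1 no longer did.

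The makeup of each family was described on the same scale per kilobase, with the same limit. FOSL2 supplied 77.1 ± 2.71% of FOS family RNA with p21 OFF and 79.4 ± 2.08% with p21 ON, FOSL1 20.9 ± 2.58% and 18.4 ± 1.89%, and FOSB and FOS together the small rest (SD, n = 3 each). In the JUN family JUN made up 55.4 ± 1.01% with p21 OFF and 55.4 ± 1.03% with p21 ON. JUNB went from 25.05 ± 0.57% to 23.7 ± 0.27% and JUND from 19.6 ± 0.57% to 20.9 ± 0.94%. The summed level of the JUN family was 4785 ± 197 per kilobase with p21 OFF and 4101 ± 244 with p21 ON, and that of the FOS family 1394 ± 161 and 1320.0 ± 36.2.

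**Figure D4:**
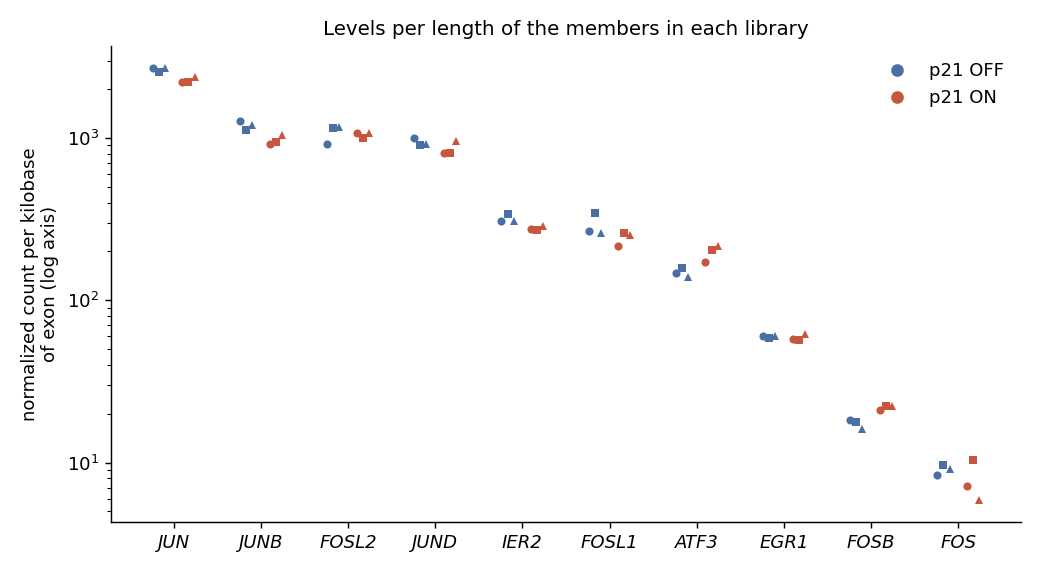
Normalized count per kilobase of exon of the canonical transcript for each member in each library, on a log axis, ordered by the p21 OFF mean; blue is p21 OFF, red p21 ON, and circles, squares and triangles are replicates 1, 2 and 3. JUN stands above a group of JUNB, FOSL2 and JUND, and FOS is lowest.

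Other genes of the pathway were counted in lists. Over all 13255 genes tested, 10.5% were called higher and 12.7% lower, 23.2% in all, and each list is to be read beside these shares. At an unadjusted p under 0.05 by limma, 2354 of all genes tested were higher and 2527 lower. Among 14 other bZIP genes whose proteins can pair with FOS or JUN, 11 were tested. Their median was 0.11 on the log2 scale, and 1 was called higher and 0 lower by limma (2 and 0 at an unadjusted p under 0.05). The call was BATF3, a partner of JUN proteins in immune cells, which had 39.2 ± 2.87 normalized counts with p21 OFF and 55.8 ± 4.12 with p21 ON (SD, n = 3 each; log2 fold change 0.50, limma adjusted p = 0.0411). It was not called by DESeq2, without the filter, or when any 1 of the 6 libraries was left out.

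Among 30 genes listed as other immediate early genes or their regulators 26 were tested, with a median of -0.02. By limma 1 was called higher and 4 lower (3 and 5 at an unadjusted p under 0.05). The higher call was NAB1, a corepressor of EGR proteins and so one of the regulators. NAB1 rose from 634 ± 26.3 to 822 ± 15.1 normalized counts (log2 fold change 0.38, limma adjusted p = 0.000851). IER5 (log2 fold change -0.38), KLF6 (-0.23), ZFP36L1 (-0.20) and MCL1 (-0.16) were lower, with adjusted p-values of 0.0269, 0.0394, 0.0353 and 0.0492 from limma. ZFP36L1 destabilizes mRNAs with AU-rich elements, and MCL1 is an antiapoptotic BCL2 protein. The 4 lower calls became 5 without p21 OFF replicate 1, 0 without p21 OFF replicate 2, p21 OFF replicate 3 or p21 ON replicate 1, and 1 without p21 ON replicate 2 or 3. They were 1 under scaling by library size alone and 2 by DESeq2.

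Among 35 genes that act upstream or in feedback (SRF, its ELK and MKL partners, CREB1 and CREM, MAP kinases and their kinases, RSK kinases, dual-specificity phosphatases, SPRY and SPRED inhibitors), 32 were tested. The median was 0.01, and by limma 0 were called in either direction (4 higher and 1 lower at an unadjusted p under 0.05). DESeq2 and edgeR also called 0, while 2 were called higher without p21 OFF replicate 2, 1 without p21 OFF replicate 3 and 3 under scaling by library size alone. The most abundant were MAPK9, a JUN kinase, at 3879 and 3863 normalized counts with p21 OFF and ON (log2 fold change -0.0038), MKL1 (0.04) and ELK1 (-0.06), none of them called.

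Among 25 genes described as AP-1 targets 19 were tested, with a median of 0.02. By limma 3 were called higher and 2 lower (7 and 3 at an unadjusted p under 0.05). CCND1, which encodes cyclin D1, had 104, 109 and 89.4 normalized counts in p21 OFF and 158, 172 and 176 in p21 ON libraries (log2 fold change 0.74, limma adjusted p = 0.000246), without overlap. PTGS2, the inducible cyclooxygenase, went from 18.04 ± 3.44 to 32.2 ± 10.6 (log2 fold change 0.77, limma adjusted p = 0.0436) on 16 to 36 reads per library. PTGS2 was not called by DESeq2, without the filter, or without p21 OFF replicate 2 or replicate 2 or 3 of p21 ON, with limma adjusted p-values from 0.0999 to 0.194 when one of these libraries was left out. The hyaluronan receptor CD44 fell from 604 ± 23.8 to 470.4 ± 11.3 (-0.36, limma adjusted p = 0.00201), and VIM, which encodes vimentin, had a log2 fold change of -0.19 (limma adjusted p = 0.0375), a call that was lost without the filter, under scaling by library size alone and without p21 OFF replicate 2 or replicate 1 or 2 of p21 ON. The collagenase gene MMP1, a textbook AP-1 target, was listed at 0 in every library, MMP3, IL6 and IL8 were below the filter, and the abundant targets TNC (0.15), MMP2 (-0.03) and VIM were the 3 highest by mean. Higher calls numbered 5 without p21 OFF replicate 1, 6 under scaling by library size alone and 2 in each setting where PTGS2 was lost, and lower calls 1 without p21 OFF replicate 2 and 1 without replicate 1 or 2 of p21 ON. CCND1, CD44, PTGS2, VIM, NAB1, MCL1 and ZFP36L1 share exonic bases with other annotated genes.

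**Figure D5:**
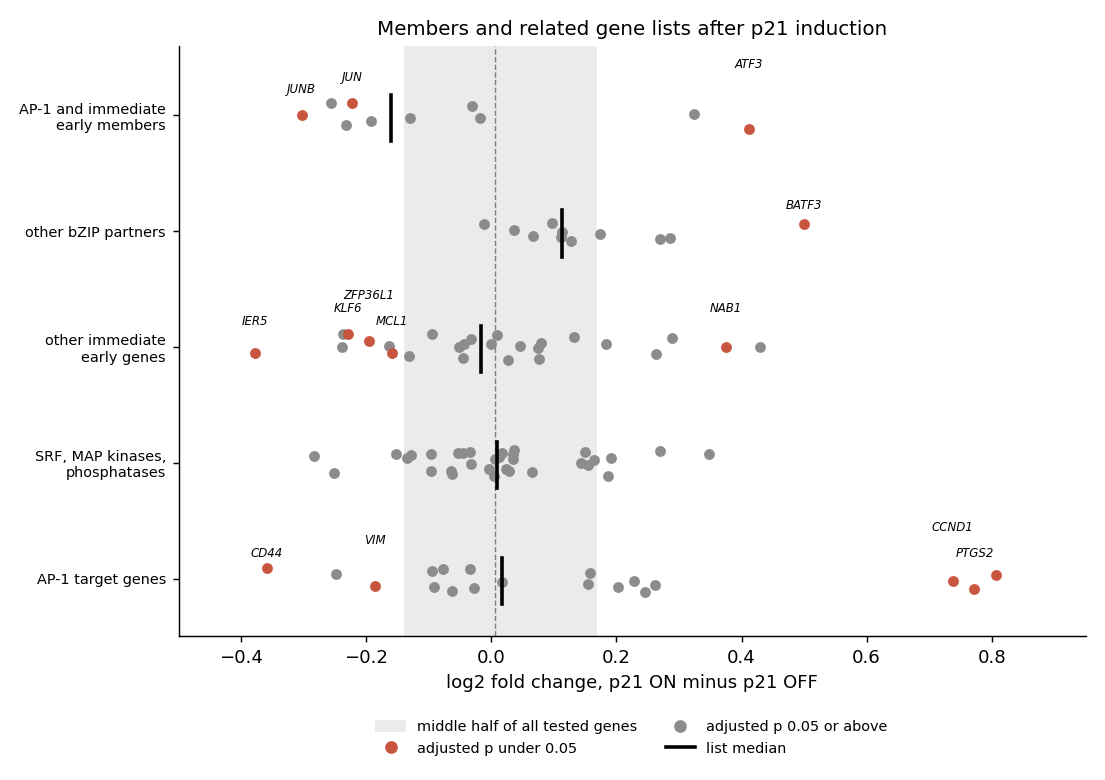
Log2 fold change, p21 ON minus p21 OFF, of the members and of the tested genes of 4 related lists; red marks an adjusted p under 0.05, black bars are list medians, the grey band runs from the lower quartile (-0.14) to the upper quartile (0.17) of all tested genes, and points are spread vertically only for legibility. Most genes lie in or near the band, with PTGS2 and CCND1 far to the right, and called genes carry their names except 1 target.

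Over the 6 libraries the pattern of JUNB was compared with that of every unlisted gene averaging 100 normalized counts or more. The most similar were MAGEC2, SLC39A6, PTDSS2, NOC2L and C19orf22, with Pearson correlations from 0.990 to 0.998 among 10350 genes compared. The points share the size factors and the difference between the groups, and these are the highest of many values, so they are given as a description. MAGEC2 had a log2 fold change of -0.18 and C19orf22 of -0.22.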

How the data were processed

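RNA-seq of 6 SaOS-2 libraries was used, 3 p21 OFF and 3 p21 ON. By their methods the authors prepared stranded mRNA libraries, mapped single-end reads to hg19 with STAR, counted them per gene name with HTSeq and deposited a signal per gene and library, the count divided by a DESeq2 size factor. Tool versions, the gene annotation and the strand setting are not given in the sources used here. Whole reads were recovered in every library (100% of values within 0.01 of a whole multiple of the step).

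Genes with a mean of at least 10 were tested with limma 3.58.1 in R 4.3.3 (lmFit, eBayes with a trend, pseudocount 1, no covariates). The study's test, DESeq2 (1.42.0), and edgeR 4.0.16 on recovered reads were alternatives, with other scalings, pseudocounts of 0.1 and 10, filters, a threshold of 0.01, a replicate block and each library left out. On the recovered reads edgeR with TMM called 1401 genes higher and 1647 lower, against 1393 and 1681 by limma. Scripts were tested on simulated data. Genes named were the members, CDKN1A, up to 5 called genes per list and direction, the 3 highest by mean of a list, and the 5 genes most like the member with the lowest adjusted p. HOOK2, RB1, marker genes and genes under the filter were named beside these, and HOOK2 was chosen after its values were seen. The members and lists were chosen with earlier results of these data known. Positions are from GENCODE release 44 lifted to GRCh37, to which 21297 of 23228 rows matched, some by older symbols from RefSeq. Some genes of the lists, 1 called target among them, are counted but not reported here by name.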

Additional observations from a re-analysis of the deposited data

How the results depend on the processing

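Of the members, JUNB and ATF3 were called in all 17 alternatives and JUN in 15, and FOS, FOSB, JUND and EGR1 in none. DESeq2 gave no adjusted p for FOS, so FOS could not be called in that setting. The replicate numbers did not pair the samples (correlations of deviations from the group means -0.06, -0.02 and -0.05), and with the replicate number as a block 1407 genes were called higher and 1513 lower, with FOSL1 called (limma adjusted p = 0.0462), and 2 other bZIP genes higher, 2 other immediate early genes lower, 1 upstream gene higher and 1 AP-1 target lower.

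When libraries were scaled by their size alone, the median over all genes was 0.05 and 63.0% of calls were higher, against 45.3%. It gave positive log2 fold changes for EGR1 (0.0255) and FOSL2 (0.0129). Called higher were 2 other bZIP genes, 2 genes of the immediate early list, NAB1 among them, 3 upstream genes and 6 AP-1 targets. Called lower were 1 immediate early gene and 1 target. An adjusted p under 0.01 left 616 genes higher and 882 lower, 1 member lower, 0 bZIP genes higher, 0 immediate early genes lower and 1 target lower. DESeq2 gave 0 bZIP genes higher and 2 immediate early genes lower, and no filter gave 0, 1 immediate early gene lower and 1 target lower.

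With each library left out in turn, genes called higher numbered 692 to 1488 and lower 888 to 1662, the lowest of each without p21 ON replicate 1 and also few without p21 ON replicate 3 (739 and 1076). Members called lower ranged from 1 (without p21 ON replicate 1) to 5 (without p21 OFF replicate 1), bZIP genes higher from 0 to 1, immediate early genes lower from 0 to 5, upstream genes higher from 0 to 2, and targets from 2 to 5 higher and 1 to 3 lower. EGR1 ranged from -0.059 to 0.0096 (above 0 without p21 ON replicate 2) and FOSL2 from -0.141 to 0.0293 (above 0 without p21 OFF replicate 2, p21 OFF replicate 3 or p21 ON replicate 2). The cause was not tested. FOS rests on 13 to 26 reads per library, the fewest of the members.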
